A study of Mus musculus with 18 samples.

Results

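The 32 genes described here make cholesterol and fatty acids, control that synthesis or carry sterol out of the cell. They were taken by symbol from a list of sterol and lipid synthesis genes, by role and not by a threshold on any value, although earlier results of these data were known when the list was drawn up. All 32 were found among the 32285 genes of the deposited count table, and all 32 were among the 15072 genes with enough counts to be tested. By role they comprise 7 genes of the mevalonate steps, 11 of the squalene and sterol steps, 4 that regulate synthesis or move sterol inside the cell, 8 of fatty acid synthesis and desaturation, and 2 sterol exporters.

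RNA was counted in 18 libraries of synovial fibroblasts, the connective tissue cells of the joint lining, sorted from the paws of wild-type mice. Each of 6 groups held 3 libraries. Naive cells came from mice without arthritis and were left unstimulated or were given FGF2 at 10 ng/mL (fibroblast growth factor 2, which drives fibroblast proliferation), 50 ng/mL osteopontin (OPN, a secreted protein that binds integrins and CD44) or both factors for 3 days. Cells labelled STIA came from mice with K/BxN serum-transfer-induced arthritis, in which antibodies from an arthritic strain set off joint inflammation, and were left unstimulated or were given OPN. No group had FGF2 on STIA cells. The age, sex and strain of the mice, the sort gates, the culture time of unstimulated cells and the source of the replicates (separate mice or separate cultures) are not stated in the labels. The p-values therefore measure only the spread between these libraries, which may be technical.

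Animal cells build cholesterol from acetyl-CoA through mevalonate, isoprenyl units and squalene to lanosterol, which is trimmed in many steps to cholesterol. The genes for these steps are classical targets of the SREBP transcription factors, which lie as precursors in the endoplasmic reticulum, are held there by INSIG proteins when sterol is plentiful and are cut free when it is scarce. SREBP-2 (gene Srebf2) is known mainly for sterol genes and SREBP-1 (gene Srebf1) mainly for fatty acid genes, while the exporters Abca1 and Abcg1 are classical targets of the liver X receptors, which sense oxidised sterols.

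SREBPs bind a sterol regulatory element near the start site, usually beside boxes for NF-Y and Sp1, so 4 promoters are shown to let these letters be seen. Hmgcs1 and Sc5d had the widest range of group means among the mevalonate and sterol genes, Mvk held the most NF-Y boxes, and Hsd17b7 stood against most of its role under FGF2; Mvk and Hsd17b7 were chosen after their values were seen. The sequences are from RefSeq on GRCm38.p6, read 5′ to 3′ on the strand of the gene and ending before the first annotated start. Capitals mark the sterol regulatory element core TCACNCCAC and the NF-Y box CCAAT. On the opposite strand that box reads ATTGG.
Hmgcs1 (chr13:119690101-119690350, plus strand): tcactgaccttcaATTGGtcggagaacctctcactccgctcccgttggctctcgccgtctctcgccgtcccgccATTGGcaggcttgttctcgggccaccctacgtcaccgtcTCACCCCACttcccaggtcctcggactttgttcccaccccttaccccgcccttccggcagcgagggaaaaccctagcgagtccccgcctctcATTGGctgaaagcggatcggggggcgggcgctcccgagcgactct
Mvk (chr5:114444019-114444268, plus strand): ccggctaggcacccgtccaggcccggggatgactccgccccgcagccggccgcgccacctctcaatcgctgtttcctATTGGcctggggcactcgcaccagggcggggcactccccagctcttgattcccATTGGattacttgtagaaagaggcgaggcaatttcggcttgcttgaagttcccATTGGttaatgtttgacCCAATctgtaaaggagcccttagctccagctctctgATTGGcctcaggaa
Sc5d (chr9:42264301-42264550, minus strand): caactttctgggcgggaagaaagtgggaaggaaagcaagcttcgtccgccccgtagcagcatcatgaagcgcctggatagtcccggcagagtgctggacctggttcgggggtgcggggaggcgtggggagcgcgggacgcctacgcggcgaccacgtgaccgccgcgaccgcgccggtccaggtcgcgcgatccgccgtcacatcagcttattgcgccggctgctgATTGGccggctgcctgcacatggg
Hsd17b7 (chr1:169969242-169969455, minus strand): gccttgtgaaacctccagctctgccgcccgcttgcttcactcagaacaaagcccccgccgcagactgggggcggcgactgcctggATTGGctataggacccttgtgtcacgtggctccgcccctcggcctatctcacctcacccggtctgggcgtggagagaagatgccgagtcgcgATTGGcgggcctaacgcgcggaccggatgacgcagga
The core TCACNCCAC stood in Hmgcs1 alone among the 24 genes of the set with a RefSeq window (250 bases before to 50 after the start, both strands searched), 137 bases before the start, against 1.44% of all 27025 genes. The NF-Y box CCAAT stood in 19 of the 24 (79.2%) against 41.1% of all genes, and the Sp1 box GGGCGG in 20 of the 24 (83.3%) against 38.2%. The boxes can overlap other motifs, and a match describes letters in a window, not a bound site. Only these exact spellings were searched, so a gene without a match may hold a variant or a site outside the window. Fdps, Fdft1, Sqle, Stard4, Scd1, Scd2, Fads1 and Abcg1 had no entry.

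Library totals ran from 27527043 to 40357342 counts, so that 3 counts correspond to 0.0753 to 0.110 CPM (the usual count scaled to library size, here on TMM-scaled totals). The lowest value of any of the 32 genes in any library was 1.06 CPM. The fibroblast list (Col1a1, Col1a2, Pdgfra, Pdgfrb, Vim, Thy1, Prg4) summed to 62990 to 71268 CPM in unstimulated naive libraries and to 19362 to 19626 CPM with FGF2. Its members differed in direction. Col1a1 had means of 36971 CPM unstimulated and 4067 CPM with FGF2, and Col1a2, Pdgfrb, Thy1 and Prg4 were also lower. Vim stood higher with FGF2, at means of 5054 and 8716 CPM, and so did Pdgfra, at 317 and 396 CPM. The 6 adipocyte markers (Adipoq, Plin1, Cidec, Lep, Cfd, Pck1) summed to at most 0.249 CPM in every library, and the leukocyte marker Ptprc had a mean of at most 0.156 CPM in any group. The macrophage list (6 genes) summed to 12.0 to 13.6 CPM in unstimulated naive and 42.6 to 47.9 CPM in FGF2 libraries. Its members differed in direction: Cd14 had means of 6.03 and 43.8 CPM, Lyz2 3.86 and 0.576 CPM and Csf1r 2.92 and 0.479 CPM, while C1qa was at 0 in all FGF2 libraries. The endothelial list (4 genes) summed to 1.80 to 2.01 and 12.4 to 13.4 CPM, of which Kdr made 1.03 and 9.08 CPM. The pericyte list (5 genes) summed to 286 to 305 CPM unstimulated, 250.2 to 357 CPM with FGF2 and 203 to 219 CPM with both factors, mostly Cspg4. Within it Rgs5 had means of 2.23 CPM unstimulated, 41.1 with FGF2 and 38.4 with both, and Abcc9 1.56, 0.358 and 8.06 CPM. The skeletal muscle list, mostly Acta1, summed to 6.98 to 9.11 CPM in naive, 59.3 to 76.1 CPM in STIA and 24.9 to 28.6 CPM in STIA with OPN libraries. In unstimulated naive and STIA cells Acta1 had means of 6.30 and 65.3 CPM and Tnnt3 1.41 and 1.04 CPM. Ckm and Myh4 had means of at most 0.0236 CPM in both. The part of these marker levels in the results below was not tested.

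Per kilobase of exon, unstimulated naive cells expressed the desaturase Scd2 most, at 275 ± 7.84 CPM per kb (SD, n = 3). Scd1 followed at 85.4 ± 0.593, Fads2 at 66.5 ± 3.13, Fads1 at 64.6 ± 3.27 and Acly at 58.4 ± 2.19 CPM per kb. Among the sterol genes Cyp51 stood highest, at 42.1 ± 2.33 CPM per kb. Abcg1 was lowest, at 0.178 ± 0.0443, below Tm7sf2 at 2.40 ± 0.331 and Abca1 at 4.05 ± 0.329 CPM per kb. The levels of Fads2 and Fads1 did not differ beyond their spread.

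Across the set, FGF2 lowered most genes, OPN alone raised a group of sterol genes and lowered desaturases, and OPN on top of FGF2 raised most of the set. STIA cells expressed more of the sterol genes than naive cells. In them OPN changed 1 gene of the set, and few of all genes tested (1.15% rose and 1.02% fell). That 1 call was lost when single libraries were left out. In bulk RNA a smaller share of the cells that express a gene and less RNA per cell cannot be told apart. With FGF2, 6 of the 32 genes rose and 20 fell, against 29.1% and 28.1% of all genes tested, and their median log2 fold change was -0.39 against 0.01 over all genes. With OPN, 10 rose and 6 fell, against 15.2% and 16.5% of all genes (median 0.15, all genes 0.00). With both factors against unstimulated cells, 6 rose and 14 fell, against 23.7% and 26.1% of all genes (median -0.11, all genes -0.01). These 3 comparisons share the unstimulated naive libraries. The differences were tested with edgeR's quasi-likelihood F test and Benjamini-Hochberg adjustment over all genes tested, and a gene is said to rise or fall at an adjusted p below 0.05.

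Scaling by library totals in place of TMM moved the median of all genes to 0.14 for both factors against unstimulated cells. By that scaling 12 of the 32 genes rose and 8 fell, and the share of all genes under it is not given. Directions of small changes in that comparison therefore depend on the scaling. The libraries of both groups did not overlap for 6 higher and 20 lower genes with FGF2, against 31.4% and 29.9% of all genes tested. They did not overlap for 9 higher and 7 lower with OPN, against 22.6% and 23.8%, and for 8 and 14 with both factors, against 26.7% and 27.5%.

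**Figure D1:**
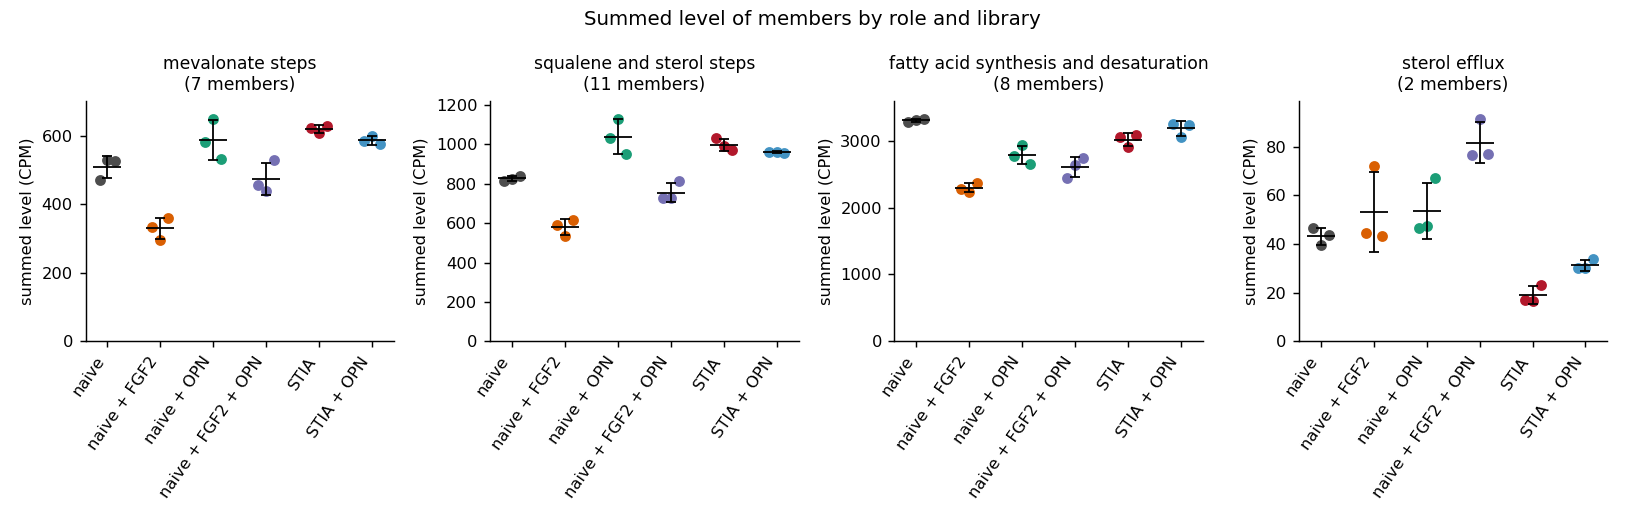
Summed level (CPM, linear axis from 0) of the genes of 4 roles in each of the 18 libraries. Points are libraries, horizontal bars are means and error bars are the SD of 3 libraries; the mevalonate and sterol sums were lowest in the FGF2 libraries and the efflux sum was lowest in STIA libraries.

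Set side by side, the summed level of the 18 mevalonate and sterol genes was 910 ± 74.3 CPM with FGF2, 1229 ± 97.0 with both factors and 1337 ± 43.4 in unstimulated naive cells (SD, n = 3). It was 1547 ± 15.6 CPM in STIA cells with OPN, 1618 ± 31.5 in unstimulated STIA cells and 1627 ± 148 in naive cells with OPN. The FGF2 libraries lay below all others, both factors and unstimulated naive overlapped, and naive cells with OPN overlapped both STIA groups. The 3 OPN libraries of naive cells differed across the pathway: replicate 2 was the highest of the 3 in 17 of the 18 genes and replicate 3 the lowest in 16. Replicate 2 of the FGF2 group was lowest in 15 of the 18, and replicate 3 of the group with both factors highest in 17.

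The mevalonate genes convert acetyl-CoA to farnesyl diphosphate. Hmgcs1, the cytosolic HMG-CoA synthase, was measured at 153, 146 and 169.8 CPM in unstimulated naive libraries, 81.4, 64.9 and 81.1 with FGF2, 199, 217 and 188 with OPN and 134, 135 and 137 with both. Each treatment stood apart from the unstimulated libraries without overlap, FGF2 and both factors below them and OPN above. Hmgcs1 fell by 1.04 ± 0.08 on the log2 scale with FGF2 (SE, n = 3, edgeR adjusted p = 5.02e-11), which is 2.06-fold lower, and rose by 0.37 ± 0.07 with OPN (adjusted p = 0.000747). With both factors it was lower by -0.21 ± 0.08 (adjusted p = 0.0258); without naive replicate 3 this was -0.15 with an adjusted p of 0.156, without replicates 1 or 2 of both factors the adjusted p was 0.0687 and 0.0536, and by library totals it was -0.06 with an adjusted p of 0.530.

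Idi1, the isomerase that makes dimethylallyl diphosphate, read 26.4, 27.9 and 32.2 CPM in unstimulated naive libraries, 23.7, 18.6 and 28.3 with FGF2, 45.5, 54.2 and 39.3 with OPN and 35.0, 32.2 and 35.6 with both. The OPN libraries lay above all others of naive cells and FGF2 overlapped the unstimulated libraries. Idi1 rose by 0.69 ± 0.12 (log2 ± SE) with OPN (edgeR adjusted p = 0.000349), and its -0.29 ± 0.13 with FGF2 did not pass (adjusted p = 0.0607; -0.44 without FGF2 replicate 3, adjusted p = 0.00508). Mvk, mevalonate kinase, read 45.5, 53.8 and 50.4 CPM in unstimulated naive libraries and 31.1, 29.1 and 33.9 with FGF2. It read 50.6, 54.4 and 48.3 CPM with OPN and 39.8, 37.5 and 48.4 with both, which overlapped the unstimulated libraries. Mvk fell by 0.67 ± 0.09 with FGF2 (adjusted p = 6.19e-07) and its 0.04 ± 0.08 with OPN did not pass (adjusted p = 0.787).

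Mvd, the diphosphomevalonate decarboxylase, read 37.6, 47.1 and 42.5 CPM in unstimulated naive libraries, 28.5, 25.4 and 30.9 with FGF2, 48.8, 48.9 and 44.5 with OPN and 37.7, 37.7 and 52.1 with both. FGF2 libraries were below the unstimulated ones, and the other groups overlapped them. Pmvk, phosphomevalonate kinase, read 12.1, 17.3 and 14.7 CPM unstimulated, 11.6, 12.0 and 13.5 with FGF2, 14.5, 15.5 and 12.6 with OPN and 15.9, 14.7 and 19.9 with both, and no treatment differed from unstimulated cells past the threshold. Without naive replicate 1 the Pmvk change with FGF2 was -0.37 (edgeR adjusted p = 0.0150), and without naive replicate 2 that with both was 0.33 (adjusted p = 0.0386). Acat2, the cytosolic thiolase of the first step, read 50.8, 57.3 and 57.9 CPM unstimulated, 41.5, 34.9 and 45.2 with FGF2, 61.5, 75.5 and 54.2 with OPN and 49.0, 47.3 and 61.4 with both. Only its fall of 0.45 ± 0.11 on the log2 scale with FGF2 passed among the 3 treatments (edgeR adjusted p = 0.00241), but its change with OPN was 0.31 without OPN replicate 3 (adjusted p = 0.0455). Of the 7 mevalonate genes, 5 fell and 0 rose with FGF2 (0 higher also by DESeq2 and at an unadjusted p below 0.05 in edgeR). With OPN 2 rose, and with both factors 2 fell, Mvk at -0.25 ± 0.09 and Hmgcs1. Of all genes tested 28.1% fell and 29.1% rose with FGF2, 15.2% rose with OPN and 26.1% fell with both. The 2 of 7 that fell with both were near that share. The fall of Mvk had an adjusted p of 0.018 and was lost by library totals (-0.11, adjusted p = 0.260) and without naive replicate 2 (-0.20, adjusted p = 0.093) or replicates 1 or 2 of both factors (adjusted p = 0.0801 and 0.109).

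The squalene and sterol genes build lanosterol and turn it into cholesterol. Cyp51, the lanosterol demethylase, read 182, 178 and 197 CPM in unstimulated naive libraries, 96.1, 79.5 and 97.4 with FGF2, 217, 245 and 197 with OPN and 129.6, 127 and 144 with both. The FGF2 and both-factor libraries were below all unstimulated ones, and OPN replicate 3 overlapped them. Cyp51 fell by 1.03 ± 0.08 on the log2 scale with FGF2 (2.04-fold lower, edgeR adjusted p = 1.74e-10) and by 0.48 ± 0.08 with both (adjusted p = 3.56e-05). Its rise of 0.24 ± 0.08 with OPN (adjusted p = 0.0229) was 0.16 without OPN replicate 2 (adjusted p = 0.175) and was also lost without naive replicates 1 or 2 (adjusted p = 0.0733 and 0.096). Exons of Cyp51 share 166 bases with Akap9 on the other strand, and no label states whether the counting used strand.

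Sc5d, the lathosterol desaturase, moved the most between groups among the 18. It read 71.0, 63.6 and 67.2 CPM in unstimulated naive libraries, 42.3, 35.5 and 42.3 with FGF2, 109, 118 and 108 with OPN and 47.4, 46.3 and 51.5 with both. The 4 naive groups did not overlap. Sc5d fell by 0.75 ± 0.07 on the log2 scale with FGF2 (1.68-fold lower, edgeR adjusted p = 6.58e-09), rose by 0.73 ± 0.07 with OPN (1.66-fold, adjusted p = 1.05e-07) and fell by 0.48 ± 0.07 with both (adjusted p = 9.74e-06). The promoter printed above for Sc5d holds 1 NF-Y box and no sterol regulatory element core.

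Hsd17b7, the sterol ketoreductase, read 57.7, 49.8 and 55.8 CPM in unstimulated naive libraries, 68.1, 58.7 and 66.7 with FGF2, 90.5, 101 and 79.2 with OPN and 90.1, 95.4 and 87.5 with both. All treated libraries lay above all unstimulated ones. Hsd17b7 rose by 0.73 ± 0.08 on the log2 scale with OPN (edgeR adjusted p = 7.89e-07) and by 0.74 ± 0.08 with both (adjusted p = 1.36e-07). Its rise of 0.24 ± 0.08 with FGF2 (adjusted p = 0.0153) was lost without naive replicate 2 (0.18, adjusted p = 0.0935) or FGF2 replicates 1 or 3 (adjusted p = 0.0716 and 0.0552).

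Msmo1, the methyl sterol oxidase of the demethylation complex, read 79.8, 75.1 and 85.7 CPM in unstimulated naive libraries, 90.1, 84.5 and 96.1 with FGF2, 132, 148 and 113 with OPN and 82.1, 77.5 and 82.2 with both. The OPN libraries lay above all others of naive cells, and those with both factors lay among the unstimulated ones. Msmo1 rose by 0.71 ± 0.08 on the log2 scale with OPN (edgeR adjusted p = 3.92e-07), and its 0.17 ± 0.08 with FGF2 did not pass (adjusted p = 0.0612; 0.22 without FGF2 replicate 2, adjusted p = 0.0288). Tm7sf2, a sterol reductase, read 10.0, 12.2 and 9.41 CPM unstimulated, 9.10, 9.75 and 8.90 with FGF2, 9.17, 13.1 and 9.77 with OPN and 12.7, 13.5 and 15.4 with both. The libraries with both factors lay above the unstimulated ones, by 0.40 ± 0.13 (adjusted p = 0.012); without naive replicate 3 or both-factor replicate 3 the adjusted p was 0.0717 and 0.062. Exons of Tm7sf2 share 532 bases with Vps51 on the same strand, so its counts are uncertain.

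Lss, which cyclises oxidosqualene to lanosterol, read 64.4, 72.7 and 70.4 CPM unstimulated, 43.5, 36.3 and 43.2 with FGF2 and 50.4, 52.3 and 61.2 with both, without overlap of the treated and unstimulated libraries. Of the 11 genes, 8 fell with FGF2, by 0.34 (Nsdhl) to 1.03 (Cyp51) on the log2 scale, and 1 rose, Hsd17b7. With OPN 5 rose (Sc5d, Hsd17b7, Msmo1, Nsdhl and Cyp51) and 0 fell by edgeR, by DESeq2 or at an unadjusted p below 0.05 in edgeR. Nsdhl, a sterol dehydrogenase of the same complex as Msmo1, rose with OPN by 0.27 ± 0.10 (edgeR adjusted p = 0.0443), 0.16 without OPN replicate 2 (adjusted p = 0.258) and 0.27 with an adjusted p of 0.0616 with the replicate numbers as a block. With both factors 6 fell and 2 rose. The shares of all genes tested that rose and fell were 29.1% and 28.1% with FGF2. They were 15.2% and 16.5% with OPN and 23.7% and 26.1% with both. Fdft1, squalene synthase, fell by 0.44 ± 0.09 with FGF2 (adjusted p = 0.000115), and its exons share 774 bases with Ctsb on the other strand, a gene with 927315 counts over all libraries against 53771 for Fdft1.

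**Figure D2:**
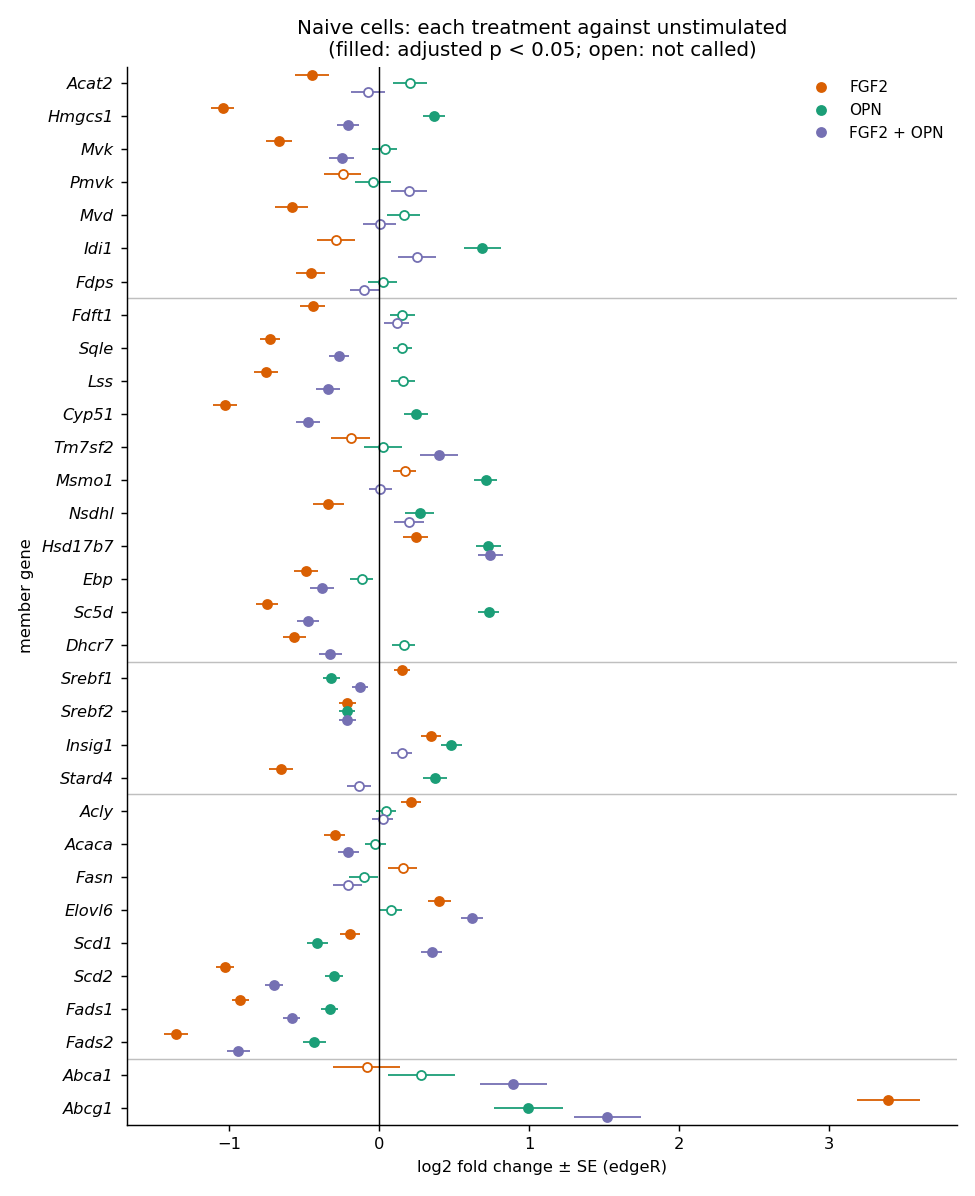
Log2 fold change ± SE of each of the 32 genes in naive cells with FGF2, OPN or both factors, each against unstimulated cells; filled points passed an adjusted p below 0.05 and grey lines divide the roles. FGF2 points lie left of 0 for most mevalonate and sterol genes, with Hsd17b7 to the right, and Abcg1 stands at 3.39 with FGF2.

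Among the regulators, Srebf2 fell slightly with every treatment of naive cells and Insig1 rose with each factor alone. Srebf2, which encodes SREBP-2, read 257, 271 and 253 CPM in unstimulated naive libraries, 228, 214 and 232 with FGF2, 225, 224 and 224 with OPN and 209.6, 225 and 239 with both. All treated libraries were below the unstimulated ones. Srebf2 fell by 0.21 to 0.22 on the log2 scale in each (edgeR adjusted p = 0.00262, 0.00571 and 0.00322), and with both factors by library totals it was -0.07 (adjusted p = 0.276). Srebf1, which encodes SREBP-1, read 149, 153 and 150.0 CPM unstimulated, 166, 172 and 165 with FGF2, 124, 118 and 121 with OPN and 132, 134 and 146 with both. FGF2 libraries were above and OPN libraries below the unstimulated ones. Srebf1 fell by 0.32 ± 0.05 with OPN (adjusted p = 0.000114). Its rise of 0.15 ± 0.05 with FGF2 (adjusted p = 0.0185) was lost without naive replicate 1 (adjusted p = 0.0597) or FGF2 replicate 2 (adjusted p = 0.0572). With both factors it was -0.13 ± 0.05 (adjusted p = 0.0499), and by library totals 0.01 (adjusted p = 0.846), so no direction is given. Exons of Srebf1 share 109 bases with Rai1 on the other strand.

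Insig1, which holds the SREBP precursors in the endoplasmic reticulum and is itself an SREBP target, read 90.6, 88.5 and 93.9 CPM in unstimulated naive libraries, 113, 115 and 119 with FGF2, 128, 139.6 and 114 with OPN and 97.1, 97.1 and 109 with both. All treated libraries lay above the unstimulated ones. Insig1 rose by 0.35 ± 0.07 on the log2 scale with FGF2 (edgeR adjusted p = 0.000167) and by 0.48 ± 0.07 with OPN (adjusted p = 1.59e-05), and its 0.15 ± 0.07 with both did not pass (adjusted p = 0.0755). Stard4, a carrier that moves sterol between membranes, followed the enzymes, at 43.6, 41.8 and 48.4 CPM unstimulated, 29.4, 25.2 and 30.3 with FGF2, 58.1, 63.2 and 51.7 with OPN and 41.9, 40.4 and 39.6 with both. FGF2 libraries lay below and OPN libraries above the unstimulated ones. Stard4 fell by 0.66 ± 0.08 with FGF2 (adjusted p = 2.36e-07) and rose by 0.37 ± 0.08 with OPN (adjusted p = 0.000869).

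In fatty acid synthesis, all 4 desaturases fell in naive cells with FGF2 and with OPN, and the genes that build the chain did not share a direction. Fads2, the delta-6 desaturase of polyunsaturated fatty acids, read 216, 231 and 210.5 CPM in unstimulated naive libraries, 86.4, 80.7 and 89.9 with FGF2, 169, 169 and 148 with OPN and 107, 104 and 132 with both. All treated libraries lay below all unstimulated ones, FGF2 lowest. Fads2 fell by 1.35 ± 0.08 on the log2 scale with FGF2 (2.56-fold lower, edgeR adjusted p = 7.73e-13), by 0.43 ± 0.08 with OPN (adjusted p = 0.000186) and by 0.94 ± 0.08 with both (adjusted p = 1.44e-09). Fads1, the delta-5 desaturase (chr19:10182888-10196877, next to Fads2 at chr19:10062765-10101746 in the deposited table, GRCm38), fell by 0.93 ± 0.06, 0.33 ± 0.06 and 0.58 ± 0.06 in the same order (adjusted p = 1.65e-12, 0.000103 and 1.37e-08).

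Scd2, a stearoyl-CoA desaturase that introduces the first double bond, read 1495, 1462 and 1547 CPM in unstimulated naive libraries, 731, 761 and 716 with FGF2, 1215, 1251 and 1189.5 with OPN and 863, 936 and 970.4 with both. These 4 groups did not overlap. Scd2 fell by 1.03 ± 0.06 on the log2 scale with FGF2 (edgeR adjusted p = 1.21e-12), by 0.30 ± 0.06 with OPN (adjusted p = 0.000628) and by 0.70 ± 0.06 with both (adjusted p = 3.16e-09). Its paralog Scd1 read 421, 417 and 416 CPM unstimulated, 348, 398 and 349 with FGF2, 315, 341 and 286 with OPN and 493, 555 and 549.7 with both. Each factor alone left it below the unstimulated libraries, and both together above them. Scd1 rose by 0.35 ± 0.07 with both (adjusted p = 0.000219) and fell by 0.41 ± 0.07 with OPN (adjusted p = 0.000104). Its fall of 0.20 ± 0.07 with FGF2 (adjusted p = 0.0194) was lost by library totals (-0.12, adjusted p = 0.135) and without FGF2 replicates 1 or 3 (adjusted p = 0.0923 and 0.0809). Scd1 (chr19:44394455-44407879) and Scd2 (chr19:44293674-44306864) are near copies, and no label states how reads mapping to both were counted.

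Elovl6, which extends the palmitate chain, read 60.6, 58.5 and 61.4 CPM in unstimulated naive libraries, 82.7, 70.7 and 84.5 with FGF2, 63.4, 69.1 and 57.8 with OPN and 92.0, 96.6 and 88.4 with both. FGF2 and both-factor libraries lay above the unstimulated ones. Elovl6 rose by 0.40 ± 0.08 on the log2 scale with FGF2 (edgeR adjusted p = 0.000107) and by 0.62 ± 0.08 with both (adjusted p = 6.03e-07). Fasn, fatty acid synthase, read 352, 376 and 369.8 CPM unstimulated, 417, 332 and 474 with FGF2, 335, 374 and 313 with OPN and 294, 319 and 336 with both. Its FGF2 libraries were spread on both sides of the unstimulated ones, and no treatment passed against unstimulated cells. Without FGF2 replicate 2, Fasn was higher with FGF2 by 0.28 (edgeR adjusted p = 0.00526) and lower with both by -0.21 (adjusted p = 0.0203), and the change with FGF2 also passed by library totals (0.24, adjusted p = 0.0468). Without the filter it was -0.22 with both (adjusted p = 0.0114). Acaca, the acetyl-CoA carboxylase that makes malonyl-CoA, fell by 0.30 ± 0.07 with FGF2 (adjusted p = 0.000797). Acly, which makes cytosolic acetyl-CoA from citrate, rose by 0.21 ± 0.07 with FGF2 (adjusted p = 0.0102; 0.17 without FGF2 replicate 3, adjusted p = 0.0664). Of the 8 genes, 2 rose and 5 fell with FGF2, and 2 rose and 4 fell with both. With OPN 0 rose and 4 fell, the 4 desaturases (0 higher also by DESeq2 and at an unadjusted p below 0.05 in edgeR). The shares of all genes tested that rose and fell were 29.1% and 28.1% with FGF2. They were 15.2% and 16.5% with OPN and 23.7% and 26.1% with both. The 2 of 8 that rose with FGF2 and with both were near these shares.

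**Figure D3:**
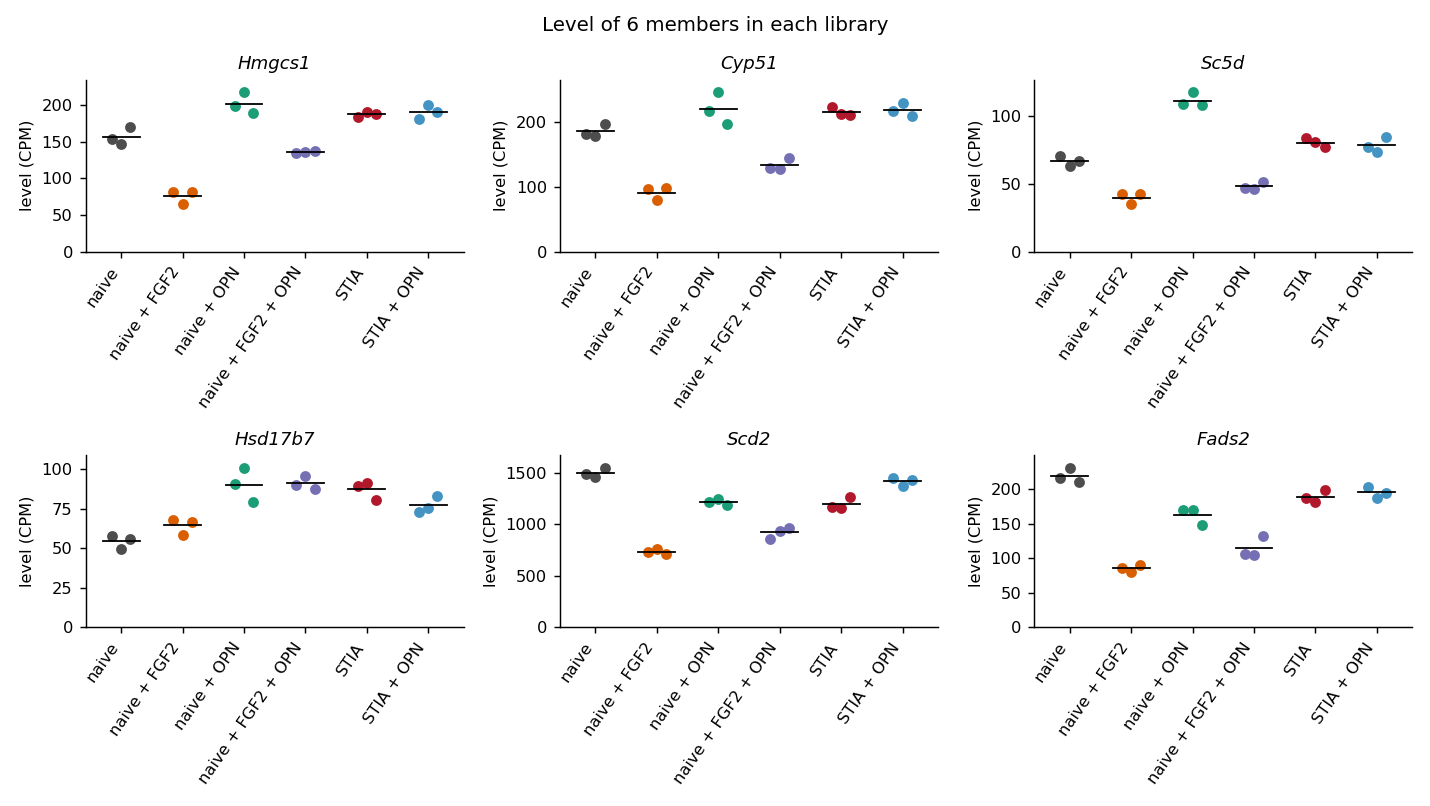
Level (CPM, linear axis from 0) of Hmgcs1, Cyp51, Sc5d, Hsd17b7, Scd2 and Fads2 in each of the 18 libraries, with a bar at the mean of 3 libraries. Hmgcs1, Cyp51 and Sc5d are low with FGF2 and high with OPN, Hsd17b7 is lowest in unstimulated naive cells, and Scd2 and Fads2 are highest there.

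Of the exporters of sterol, Abcg1 rose with every treatment of naive cells and Abca1 with both factors together. Abcg1, which passes sterol to lipoprotein particles, read 1.17, 1.06 and 1.67 CPM in unstimulated naive libraries, 12.0, 15.9 and 13.1 with FGF2, 2.31, 3.09 and 2.34 with OPN and 4.07, 3.52 and 3.57 with both. Again the groups did not overlap. Abcg1 rose by 3.39 ± 0.21 on the log2 scale with FGF2 (10.5-fold, edgeR adjusted p = 2.50e-12), by 0.99 ± 0.23 with OPN (1.99-fold, adjusted p = 0.00224) and by 1.52 ± 0.22 with both (2.87-fold, adjusted p = 6.63e-06). Abca1, which loads sterol and phospholipid onto apolipoproteins, read 45.3, 38.4 and 42.1 CPM unstimulated, 32.5, 56.2 and 30.1 with FGF2, 44.4, 44.1 and 64.7 with OPN and 72.5, 88.0 and 73.4 with both. The libraries with both factors lay above all the others, while in FGF2 replicate 2 and in OPN replicate 3 Abca1 stood far above the other libraries of their group. Abca1 rose by 0.89 ± 0.22 with both (1.86-fold, adjusted p = 0.00437), and -0.08 ± 0.23 with FGF2 and 0.28 ± 0.22 with OPN did not pass (adjusted p = 0.775 and 0.373).

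**Figure D4:**
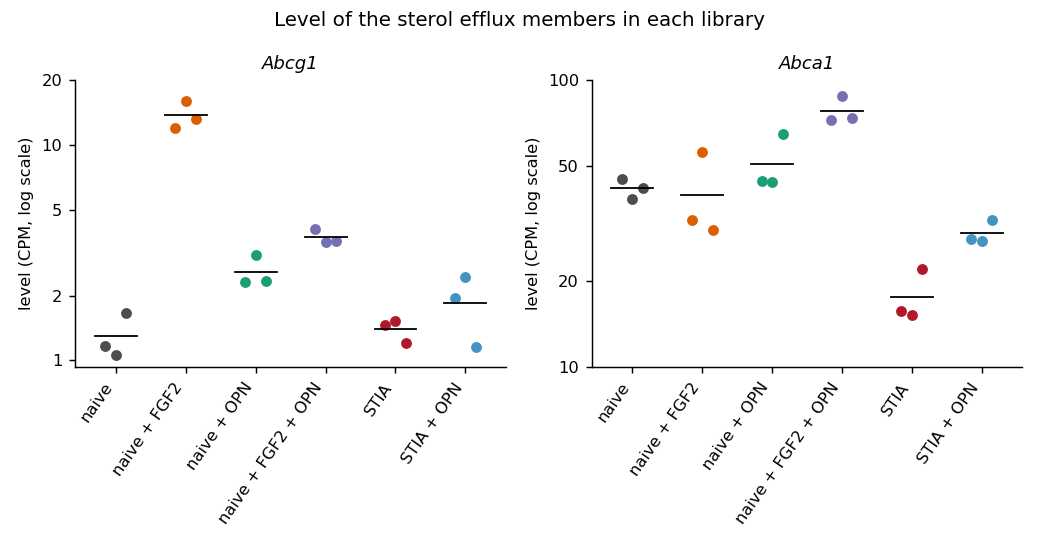
Level of Abcg1 and Abca1 in each of the 18 libraries (CPM, logarithmic axis), with a bar at the mean of 3 libraries. Abcg1 was highest with FGF2, at 12.0 to 15.9 CPM, and Abca1 lowest in unstimulated STIA cells, at 15.2 to 21.9 CPM.

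What OPN added on top of FGF2 was read from both factors against FGF2 alone. Of the 32 genes 23 rose and 5 fell, against 27.3% and 31.2% of all genes tested, with a median log2 fold change of 0.39 against -0.01 over all genes. All 7 mevalonate genes and 9 of the 11 sterol genes rose, Ebp and Msmo1 being the 2 that did not pass. Hmgcs1 rose by 0.84 ± 0.08 on the log2 scale (edgeR adjusted p = 3.34e-09), Mvd by 0.59 ± 0.11 (adjusted p = 0.000119) and Cyp51 by 0.55 ± 0.08 (adjusted p = 3.66e-06). Scd1 rose by 0.55 ± 0.07 (adjusted p = 5.35e-07) and Fads2 by 0.41 ± 0.08 (adjusted p = 8.95e-05), with no overlap between the FGF2 libraries and those with both factors. Of the set 23 higher and 4 lower genes had no overlap, against 28.3% and 31.9% of all genes tested. Abca1 rose by 0.98 ± 0.22 (adjusted p = 0.00185), while Abcg1 fell by 1.87 ± 0.18 (adjusted p = 9.31e-09). The other 4 that fell were Srebf1, Insig1, Acly and Fasn. Leaving out 1 library ended 5 calls: Acat2 (0.27 without FGF2 replicate 2, 0.25 without both-factor replicate 3), Dhcr7 (0.15 and 0.16 without the same libraries), Elovl6 (0.14 without FGF2 replicate 2, 0.19 without both-factor replicate 2), Insig1 (-0.18 without FGF2 replicate 3, -0.17 without both-factor replicates 1 or 2) and Acly (-0.15 without FGF2 replicate 3, -0.14 without both-factor replicate 1). The count of lower genes was 3 without FGF2 replicate 3 or both-factor replicates 1 or 2, and 3 by library totals.

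What FGF2 added on top of OPN was read from both factors against OPN alone, which shares the both-factor libraries with the comparison before it. Here 6 of the 32 genes rose and 17 fell, against 27.1% and 29.5% of all genes tested (median -0.22, all genes -0.01). By library totals the median of all genes was 0.12, and 8 of the 32 genes rose and 12 fell. The share of all genes under that scaling is not given. Sc5d fell by 1.21 ± 0.07 on the log2 scale (edgeR adjusted p = 5.20e-12), Cyp51 by 0.72 ± 0.08 (adjusted p = 1.07e-07), Msmo1 by 0.70 ± 0.08 (adjusted p = 6.38e-08) and Hmgcs1 by 0.57 ± 0.08 (adjusted p = 1.11e-06). None of these 4 overlapped between the groups, as for 15 lower and 5 higher genes of the set, against 31% and 29.1% of all genes tested. Scd1 rose by 0.76 ± 0.07 (adjusted p = 5.18e-09) and Elovl6 by 0.54 ± 0.08 (adjusted p = 2.73e-06). Hsd17b7 was 0.01 ± 0.08, between 79.2 and 101 CPM with OPN and 87.5 and 95.4 CPM with both. The count of higher genes was 3 without OPN replicate 1, when Abca1, Abcg1 and Tm7sf2 (0.52, 0.45 and 0.27) no longer passed. The calls of Acat2, Ebp and Acaca also ended when 1 or another library was left out, Acat2 at -0.14 without OPN replicate 2.

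The interaction tests whether the OPN effect with FGF2 present differs from the OPN effect without it. It was above 0 for 14 of the 32 genes and below 0 for 5, against 24.1% and 27.2% of all genes tested (median 0.24, all genes -0.03). On the log2 scale it was 0.96 ± 0.10 for Scd1 (edgeR adjusted p = 3.72e-08), 0.85 ± 0.11 for Fads2 (adjusted p = 1.09e-06), 0.67 ± 0.08 for Fads1 (adjusted p = 2.64e-07) and 0.63 ± 0.09 for Scd2 (adjusted p = 2.36e-06). OPN alone lowered each of these 4 desaturases and raised each on top of FGF2. Among the mevalonate genes it was 0.47 ± 0.11 for Hmgcs1 (adjusted p = 0.000812), where OPN raised the level in both settings. It was below 0 for Abcg1 (-2.87 ± 0.29, adjusted p = 3.43e-08), Msmo1 (-0.87 ± 0.11, adjusted p = 5.41e-07), Insig1 (-0.68 ± 0.10, adjusted p = 4.58e-06), Sc5d (-0.46 ± 0.10, adjusted p = 0.000682) and Acly (-0.23 ± 0.10, adjusted p = 0.0447). The count above 0 was 9 without both-factor replicate 3, the library highest in 17 of the 18 mevalonate and sterol genes. The calls of Acly, Pmvk, Mvd, Fdps, Cyp51 and Srebf2 were each lost when 1 or another library was left out. Acly was -0.17 without OPN replicate 2 (adjusted p = 0.146). Pmvk (0.49 ± 0.17, adjusted p = 0.0216) was 0.35 without naive replicate 2, and Cyp51 (0.31 ± 0.11, adjusted p = 0.0255) was 0.22 without FGF2 replicate 2.

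Unstimulated STIA cells were compared with unstimulated naive cells to find which genes differed between them. The cells came from different mice, so arthritis cannot be told apart here from other differences of animal or cell preparation. Sterol genes were higher in STIA cells and desaturases lower: 16 of the 32 genes were higher and 6 lower, against 18.6% and 18.2% of all genes tested (median 0.20, all genes -0.01). Of the 18 mevalonate and sterol genes 11 were higher and 0 lower by edgeR and by DESeq2, and 0 were lower at an unadjusted p below 0.05 in edgeR. Hsd17b7 read 89.7, 91.3 and 80.5 CPM in STIA libraries against the 49.8 to 57.7 CPM of naive ones, and was higher by 0.68 ± 0.08 on the log2 scale (edgeR adjusted p = 1.65e-06). Idi1 read 45.8, 44.6 and 44.1 CPM in STIA against 26.4 to 32.2 CPM, higher by 0.64 ± 0.12 (adjusted p = 0.000546). Msmo1 read 124, 121 and 116 CPM against 75.1 to 85.7 CPM, higher by 0.58 ± 0.08 (adjusted p = 3.82e-06). None of these 3 overlapped between the groups, as for 17 higher and 6 lower genes of the set, against 25.4% and 25.2% of all genes tested. Sc5d, at 83.9, 80.7 and 77.5 CPM in STIA, was higher by 0.26 ± 0.07 (adjusted p = 0.00593).

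STIA replicate 1 was the highest of its group in 12 of the 18 mevalonate and sterol genes, and without it 10 of the 32 genes were higher than in naive cells. Of the 22 calls in either direction, 13 held whichever 1 library was left out. The 9 that STIA replicate 1 or another library ended were Acat2, Hmgcs1, Fdps, Lss, Cyp51, Nsdhl, Dhcr7, Elovl6 and Fads2. All of these but Elovl6 and Fads2 are mevalonate or sterol genes. Acat2, at 75.5, 69.2 and 69.4 CPM in STIA, was higher by 0.37 ± 0.11 on the log2 scale (edgeR adjusted p = 0.0151) and by 0.32 without STIA replicate 1 (adjusted p = 0.0631). Hmgcs1, at 184, 191 and 188 CPM in STIA, was higher by 0.26 ± 0.08 (adjusted p = 0.00892) and by 0.21 without naive replicate 2 (adjusted p = 0.055). Cyp51, at 223, 211 and 211 CPM, was higher by 0.21 ± 0.08 (adjusted p = 0.0405), with an adjusted p of 0.0541 with the replicate numbers as a block and of 0.143 without STIA replicate 1.

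Among the other roles in STIA cells, Insig1 was higher (125, 122 and 111 CPM, 0.39 ± 0.07 on the log2 scale, edgeR adjusted p = 0.000117) and so was Stard4 (55.1, 57.6 and 51.1 CPM, 0.29 ± 0.08, adjusted p = 0.00521). Srebf1 was lower (138, 123 and 127 CPM, -0.22 ± 0.05, adjusted p = 0.00277), and Srebf2 was level (263, 253 and 264 CPM, 0.00 ± 0.06, adjusted p = 0.978), overlapping the naive libraries. Fasn read 528, 459 and 455 CPM in STIA, above all naive libraries, and was higher by 0.39 ± 0.10 (adjusted p = 0.00346). Scd2 read 1168, 1155 and 1266 CPM and Scd1 344, 315 and 341 CPM, both below all naive libraries. Scd2 was lower by -0.33 ± 0.06 (adjusted p = 0.000214) and Scd1 by -0.33 ± 0.07 (adjusted p = 0.000804). Abca1 read 15.7, 15.2 and 21.9 CPM in STIA, the lowest of the 6 groups, and was 2.39-fold lower than in naive cells (-1.26 ± 0.24, adjusted p = 0.00103). Abcg1, at 1.46, 1.53 and 1.21 CPM, overlapped the naive libraries (0.11 ± 0.25, adjusted p = 0.772). Of the skeletal muscle list Acta1 stood higher in these STIA libraries, as given above.

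In STIA cells OPN moved few of all genes tested, and little in this set. Of the 32 genes 1 rose, Scd2, and 0 fell, against 1.15% and 1.02% of all genes tested (median -0.04, all genes 0.00). At an unadjusted p below 0.05 edgeR gave 2 higher and 3 lower, and DESeq2 called 1 higher and 0 lower. Scd2 read 1455, 1374 and 1431 CPM with OPN against 1168, 1155 and 1266 CPM without, and rose by 0.25 ± 0.06 on the log2 scale (edgeR adjusted p = 0.0332). The groups did not overlap, but leaving out any 1 of these 6 libraries except STIA replicate 3 took the adjusted p to between 0.0947 and 0.184. Abca1 read 28.0, 27.5 and 32.5 CPM with OPN, above the 15.2 to 21.9 CPM without, and its 0.74 ± 0.24 did not pass (adjusted p = 0.152; 0.0204 without FGF2 replicate 2 of the naive cells in the fit). With only the groups compared in the fit, 2 rose and 5 fell. The shares of all genes given above are not from that fit, so these counts cannot be set against them. The libraries did not overlap for 4 higher and 7 lower genes of the set, against 12.3% and 13.2% of all genes tested.

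The difference between the OPN effects in STIA and naive cells was tested directly. It was above 0 for 6 of the 32 genes and below 0 for 8, against 11.8% and 10.5% of all genes tested (median -0.16, all genes 0.01). Idi1 read 33.5, 37.7 and 40.4 CPM in STIA cells with OPN, below the 44.1 to 45.8 CPM without it. That change of -0.27 on the log2 scale did not pass, whereas OPN had raised Idi1 in naive cells. The difference for Idi1 was -0.95 ± 0.17 (edgeR adjusted p = 0.000609). Hsd17b7 read 73.0, 75.5 and 83.1 CPM in STIA with OPN, overlapping STIA without it, and the difference was -0.90 ± 0.12 (adjusted p = 8.32e-06). Msmo1 read 105, 112 and 107 CPM in STIA with OPN, and the difference was -0.86 ± 0.11 (adjusted p = 5.18e-06). Sc5d read 77.3, 73.8 and 84.8 CPM, overlapping STIA without OPN, and the difference was -0.77 ± 0.10 (adjusted p = 1.00e-05). For all 4 desaturases it was above 0, from 0.39 for Fads1 to 0.55 for Scd2. Without OPN replicate 2 of the naive cells, the library highest in 17 of the 18 mevalonate and sterol genes, 5 genes were below 0, and without OPN replicate 3 there were 10. The fall in count came with the loss of Hmgcs1, Nsdhl and Stard4, at -0.29, -0.36 and -0.32. The difference for Srebf2 (0.23, adjusted p = 0.0424) was lost with the replicate block (adjusted p = 0.0522), by library totals (0.20, adjusted p = 0.0596), without the filter (adjusted p = 0.129) and without most libraries in turn, as at 0.20 without STIA with OPN replicate 3 (adjusted p = 0.107).

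**Figure D5:**
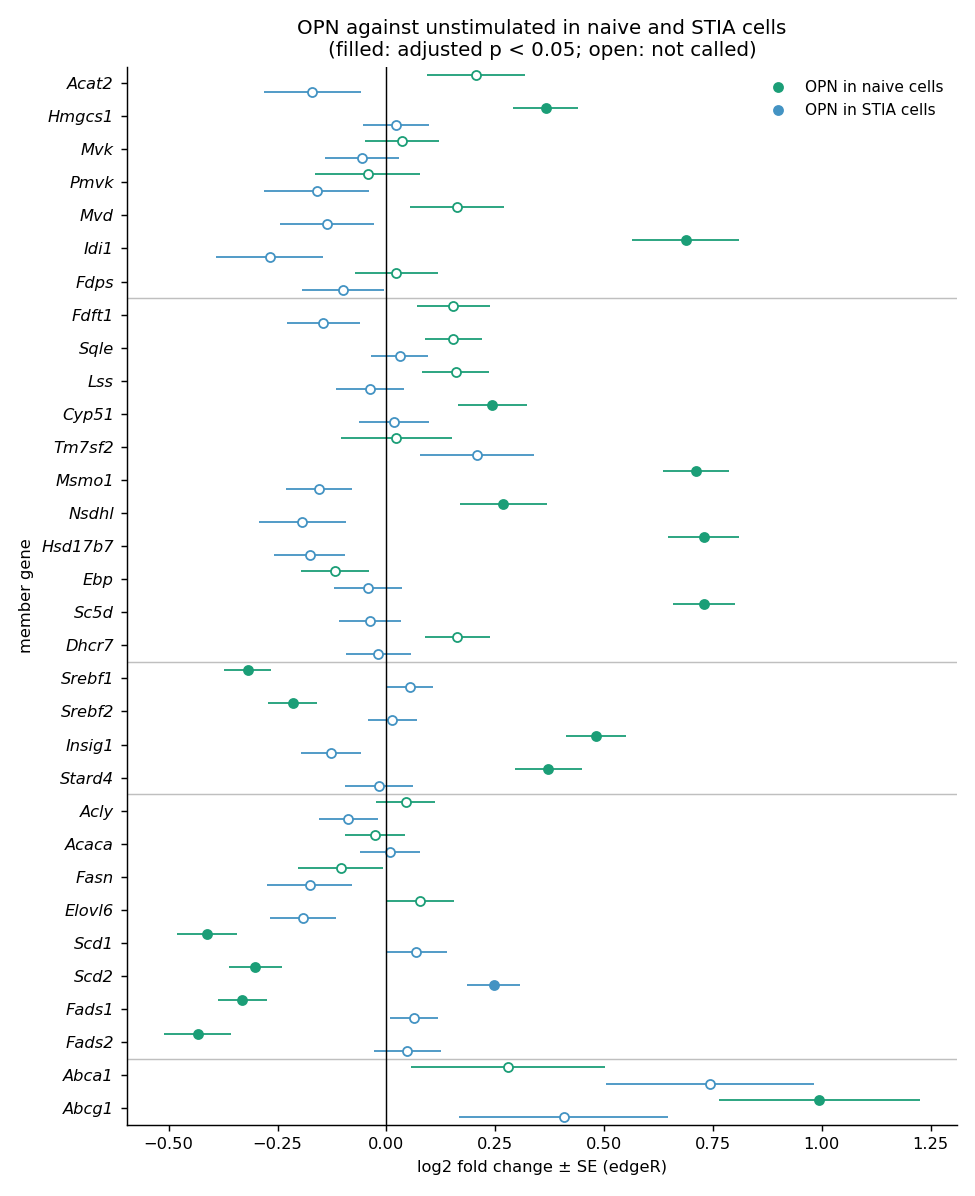
Log2 fold change ± SE of each of the 32 genes with OPN against unstimulated cells, in naive and in STIA cells; filled points passed an adjusted p below 0.05 and grey lines divide the roles. The naive points spread from -0.43 for Fads2 to 0.99 for Abcg1, and in STIA cells only the Scd2 point is filled.

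Genes next to the set in the same pathways were counted from 4 further lists. Of 20 other genes of the SREBP machinery and its targets, 3 rose and 9 fell with FGF2, 3 and 2 with OPN, 4 and 10 with both, and 9 were higher and 5 lower in STIA than in naive cells. The shares of all genes tested were 29.1% and 28.1% with FGF2, 15.2% and 16.5% with OPN, 23.7% and 26.1% with both and 18.6% and 18.2% in STIA, so the counts of this list with OPN were no higher than these shares. Acss2, which makes acetyl-CoA from acetate, fell by 1.34 on the log2 scale with FGF2, from a mean of 24.6 to 9.70 CPM, and rose by 1.22 when OPN was added to FGF2. Elovl5, an elongase of polyunsaturated fatty acids, fell by 0.69 with FGF2. Scap, the escort of the SREBP precursors, rose by 0.49 with FGF2 and fell by 0.31 with OPN.

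Of 14 genes of liver X receptors and of sterol uptake, traffic and esters, 6 rose and 6 fell with FGF2, 5 and 2 with OPN, and 6 and 3 with both. The shares of all genes tested were 29.1% and 28.1%, 15.2% and 16.5%, and 23.7% and 26.1% in the same order. Nceh1, a cholesteryl ester hydrolase, rose by 1.71 with FGF2, from 24.7 to 80.5 CPM, and Soat1, which makes cholesteryl esters, rose by 0.88, from 70.4 to 129.1 CPM. Both were also higher in STIA than in naive cells, by 0.48 and 0.84. Cyp7b1 and Cyp27a1, oxysterol and sterol hydroxylases, fell with FGF2 by 2.62 and 1.46 and were lower in STIA by -1.31 and -1.42. Cyp7b1 had means of 11.2 CPM unstimulated, 1.81 with FGF2 and 18.9 with both, and Cyp27a1 of 5.01, 1.81 and 3.15 CPM. In STIA 2 of the 14 genes were higher than in naive cells and 5 lower, against 18.6% and 18.2% of all genes tested. With both factors Mylip, a liver X receptor target, rose by 0.81, and 1 gene of this list that is counted but not named here rose by more. Ch25h, which makes an oxysterol, fell by 2.18 with both, from 4.24 to 0.918 CPM.

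Of 9 genes of triglyceride synthesis and storage, 3 rose and 3 fell with FGF2, 1 and 4 with OPN, and 3 and 3 with both. Of all genes tested 29.1% rose and 28.1% fell with FGF2, near the 3 and 3 of 9. The shares were 15.2% and 16.5% with OPN and 23.7% and 26.1% with both. Plin2, a lipid droplet coat protein, rose by 0.83 and Pnpla2, a droplet lipase, by 0.85 with FGF2, while Dgat2, which makes triglyceride, fell by 2.16, from 23.3 to 5.20 CPM. In STIA cells OPN raised Dgat2 by 0.47 and lowered Mgll, a monoglyceride lipase, by -0.52. Of 10 genes of fatty acid oxidation, 3 rose and 4 fell with FGF2, and 1 and 2 with OPN. With both, 6 rose and 0 fell (0 lower also at an unadjusted p below 0.05 in edgeR). The 3 of 10 that rose with FGF2 and the counts with OPN were near the shares of all genes just given. Cpt1a, the gate to mitochondrial oxidation, rose by 1.03 with both factors, from 61.7 to 126 CPM, and Ppara, which encodes a regulator of such genes, by 0.89 at a mean of at most 0.857 CPM.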

How the data were processed

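RNA of 18 libraries was sequenced as paired reads. Per the submitters' processing notes the authors aligned reads with STAR and counted them per gene with featureCounts on GRCm38 (mm10), and the deposited values are raw counts without normalisation. Tool versions, annotation release, strand setting and multimapping were not given in the sources used here, and they bear on paralogs and overlapping genes. Symbols were taken from the reference gene table (GENCODE M21), and the 127 identifiers without one took 0.0294% of counts. Total counts per library were 27527043 to 40357342, and an interval or floor from them covers counting error only.

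Genes were kept by filterByExpr (15072 tested), scaled by TMM and fitted with 1 mean per group over all 18 libraries by edgeR 4.0.16 (robust quasi-likelihood, R 4.3.3). There were 9 two-sided contrasts, adjusted by Benjamini-Hochberg over all genes. The SE was computed as the absolute log2 fold change over the root of F. The biological coefficient of variation was 7.99%. Levels per kilobase use the deposited exon length. The fit was tested on simulated data. Alternatives were DESeq2 1.42.0, library totals, no filter, only the groups compared, the replicate number as a block and each library left out.

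The members and lists were chosen with earlier results of these data known. Genes with values in every library were the first 2 of those called per role and comparison, by absolute log2 fold change, with a mean of at least 5 CPM in 1 group compared; from the other lists the 2 largest called changes each way could be named, and not every such gene is named. No replicates were identical.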

Additional observations from a re-analysis of the deposited data

Results flagged for a closer look

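The OPN effect differed between STIA and naive cells for 14 of the 32 genes, by a test of the difference itself (log2 effect in STIA minus log2 effect in naive cells, edgeR, Benjamini-Hochberg over all genes; 11.8% of all genes tested were above 0 and 10.5% below). It was lower in STIA cells for 8 genes of sterol synthesis, regulation and transport: Idi1 by -0.95 (adjusted p = 0.000609), Hsd17b7 by -0.90 (8.32e-06), Msmo1 by -0.86 (5.18e-06), Sc5d by -0.77 (1.00e-05), Insig1 by -0.61 (9.53e-05), Nsdhl by -0.46 (0.0220), Stard4 by -0.39 (0.0128) and Hmgcs1 by -0.34 (0.0224). It was higher in STIA cells for the 4 desaturases, Scd2 by 0.55 (7.93e-05), Scd1 by 0.48 (0.00109), Fads2 by 0.48 (0.00259) and Fads1 by 0.39 (0.000894), and for Srebf1 by 0.37 (0.00116) and Srebf2 by 0.23 (0.0424). The Srebf2 difference was lost with the replicate block (adjusted p = 0.0522), by library totals (0.0596), without the filter (0.129) and without most libraries in turn (up to 0.107). Those of Hmgcs1, Nsdhl and Stard4 were lost without OPN replicate 2 of the naive cells (0.0754, 0.0750 and 0.0510), and the first 2 also without some other libraries.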

How the results depend on the processing

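Of the 288 results of single genes (32 genes, 9 comparisons), DESeq2 changed 1 call and no direction. Leaving out each of 18 libraries in turn gave 5184 such results, of which 4964 kept their side of the threshold, 171 lost and 49 gained a call. By library totals 15 lost and 14 gained a call. A further 1, Srebf1 with both factors against unstimulated cells, changed sign to 0.0128 and also lost its call (edgeR adjusted p = 0.846). Changes of sign, here and with DESeq2, were counted only for results called in either fit. With both factors against unstimulated cells 12 genes were higher and 8 lower by library totals, and against FGF2 3 were lower, as also with only the groups compared in the fit. For OPN in STIA cells there were 2 higher and 1 lower without the filter, and 2 higher and 5 lower with only the groups compared. Leaving out 1 library in turn gave 3 to 6 lower for both factors against FGF2, 3 to 6 higher against OPN, 9 to 16 above 0 for the interaction, 10 to 17 higher in STIA, 0 to 2 higher with OPN in STIA cells and 5 to 10 below 0 for the difference of OPN effects. Shares of all genes tested are given for the main fit only, so the counts under the alternatives have no share beside them. The cause of these shifts was not tested.

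Replicate numbers were not used to pair libraries: same-numbered libraries correlated at -0.104 to 0.199 in their deviations from group means, above 0.1 in 2 of 45 pairs. With the number as a block, the counts of genes higher and lower were 6 and 20 with FGF2, 9 and 6 with OPN, 6 and 13 with both factors, 13 and 4 for the interaction, 15 and 6 in STIA and 5 and 8 for the difference of OPN effects. In all the block ended 6 calls. Library totals overlapped between groups, but the 2 largest were OPN replicates 1 and 2 of naive cells (40357342 and 39458168 counts). At 1.06 CPM or more each gene lay above the level of 3 counts.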
